A study of Mus musculus with 7 samples.

Results

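The question here was how 3T3-L1 cells given exosomes of lean brown adipose tissue differed in their RNA from cells given exosomes of lean inguinal white adipose tissue. Of the 7 RNA-seq libraries of the series, 2 were compared. One came from cells given exosomes from brown adipose tissue (LFD-BAT-Exos) and the other from cells given exosomes from inguinal white adipose tissue (LFD-iWAT-Exos), both depots taken from wild-type mice on a low-fat diet (LFD). All 12484 genes at 1 CPM (counts scaled to the library total) or more in either library were used, of 34745 in the count table. The other 5 libraries were an untreated control, LFD-vWAT-Exos (visceral white adipose tissue), and HFD-iWAT-Exos, HFD-BAT-Exos and HFD-vWAT-Exos from mice on a high-fat diet (HFD). Every culture was 3T3-L1, a mouse embryonic fibroblast line that was kept past confluence and then given insulin, IBMX and dexamethasone, as is usual for making adipocytes. Cells were used between days 8 and 10 of differentiation and met the exosomes for 48 h. The labels give neither the age nor the number of the mice behind each exosome preparation. The labels list the control as having had no treatment, while the study's legends name PBS.

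Exosomes are small vesicles that cells release and that can carry RNA, protein and lipid to other cells. Brown adipose tissue burns fuel for heat through uncoupled respiration, and inguinal white adipose tissue is a subcutaneous depot that stores triglyceride and can take on brown features in the cold. 3T3-L1 cells stop dividing at confluence, pass through a short wave of division when the hormone mixture is added, and leave the cell cycle again as they fill with lipid. Genes of S phase and mitosis are transcribed in dividing cells, and much of their timing is set at the promoter by E2F sites, by CCAAT boxes and by a short element called the cell cycle genes homology region (CHR).

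Each group was 1 library, so no test across samples was possible and no p-value is given. Ratios are of scaled counts, LFD-BAT-Exos over LFD-iWAT-Exos, and each has an exact 95% interval that covers counting error only and not the spread between cultures. A gene was called apart when it differed at least 2-fold, read from a log2 ratio with a prior count of 2, and its interval excluded equal levels. The total was 22290726 counts with LFD-BAT-Exos and 24345291 with LFD-iWAT-Exos, and between 13493560 and 24345291 over all 7 libraries. A count of 3 was worth 0.133 CPM with LFD-BAT-Exos and 0.123 CPM with LFD-iWAT-Exos. One library outside the comparison, LFD-vWAT-Exos, was far from all others, with 3599 to 3817 genes apart in its 6 pairs, and its values are given for completeness.

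The labels call the cells mature adipocytes, and the defining markers were mostly missing from both libraries. Of 12 adipocyte markers, 8 were below 1 CPM in both libraries and 4 of them had no count in either. Adipoq, which encodes adiponectin, had 7 counts with LFD-BAT-Exos and 0 with LFD-iWAT-Exos. Among the markers present, Lpl (lipoprotein lipase) stood at 1054 and 933 CPM, Plin4 (a lipid droplet coat protein) at 82.1 and 49.7 CPM, and Pparg, the main adipogenic factor, at 13.5 and 13.7 CPM. Fabp4 (a fatty acid binding protein), the other marker present, was lower with LFD-BAT-Exos (log2 ratio -1.15, values given below). The 8 preadipocyte or fibroblast markers summed to 36486 CPM with LFD-BAT-Exos and 31543 CPM with LFD-iWAT-Exos. Markers of lymphocytes, endothelium, blood and epithelium summed to at most 4.26 CPM each in either library. Those of macrophages summed to 57.6 and 62.6 CPM, with 9 of 15 below 1 CPM in both. In bulk RNA, fewer cells of a kind and less RNA per cell cannot be told apart.

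Between the lean brown and lean inguinal libraries, 644 of 12484 genes (5.16%) were apart, 277 of them higher with LFD-BAT-Exos (2.22%) and 367 lower (2.94%). The median log2 ratio over all genes was 0.00. Among the 15 pairs of libraries without LFD-vWAT-Exos this was the pair with the most genes apart, just above the 637 between the control and LFD-iWAT-Exos, and the lowest of the 15 counts was 207. The LFD-BAT-Exos library had 213 to 332 genes apart from the other 4 libraries, and the LFD-iWAT-Exos library had 318 to 637. For 486 of the 644 genes (75.5%) the LFD-iWAT-Exos value was the farther of the 2 from the median of the control and the 3 HFD libraries, against 64.6% of all genes used. The split by direction differed with the level. Among genes with 1 to 3 CPM in the higher library, 136 were higher and 87 lower of 1171, whereas among those with 30 to 100 CPM, 25 were higher and 79 lower of 4102. Just inside the minimum, 108 genes with 1 to 1.1 CPM had a median log2 ratio of 0.08, and just outside it 87 genes with 0.9 to 1 CPM had 0.11.

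**Figure D1:**
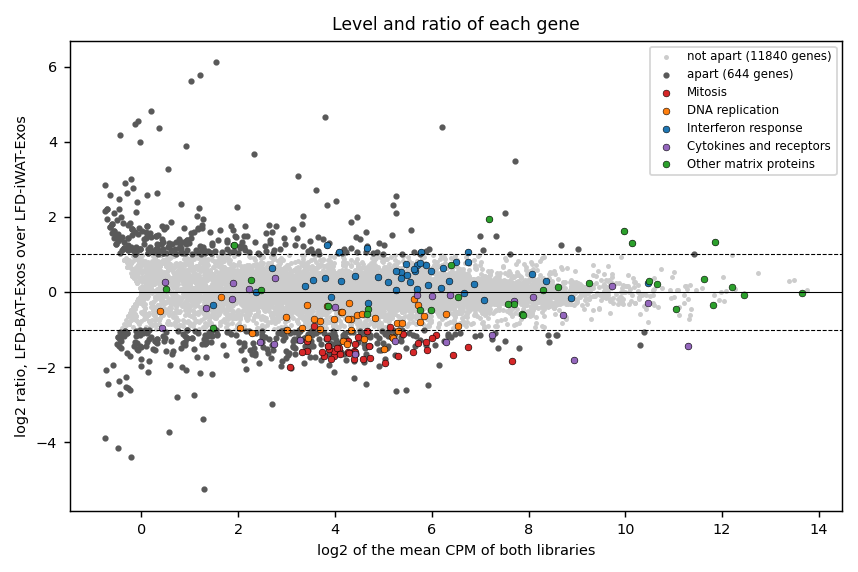
Log2 ratio of LFD-BAT-Exos over LFD-iWAT-Exos against the log2 of the mean CPM of both libraries, 1 point per gene, with dashed lines at 2-fold. The 644 genes apart are dark, and colours mark 5 gene lists: the mitosis genes lie below 0 without exception and most interferon genes lie above it.

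Lower with LFD-BAT-Exos, before all else, were the genes of cell division. All 42 genes of the mitosis list had a lower value than with LFD-iWAT-Exos, where 6236 of all 12484 genes did. Of the list 40 were apart, where 2.94% of all genes were apart and lower. Their median log2 ratio was -1.55, a 2.94-fold difference, with single genes from -1.998 to -0.896. The 2 that were not apart were Incenp, a scaffold of the chromosomal passenger complex (1.92-fold lower, 1.73 to 2.13), and Cks2, a subunit of cyclin-dependent kinases (1.87-fold lower, 1.56 to 2.24, shared reads).

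The promoters of 2 of these genes are printed here because they hold the letters of the CHR and of the CCAAT box. Sequences are RefSeq, build GRCm38.p6, and run 5′ to 3′ on the gene's strand up to the base before the start site. Capitals mark every CHR (TTTGAA) and CCAAT box (CCAAT), either strand.
Ccnb2, chr9:70421555-70421734, minus strand: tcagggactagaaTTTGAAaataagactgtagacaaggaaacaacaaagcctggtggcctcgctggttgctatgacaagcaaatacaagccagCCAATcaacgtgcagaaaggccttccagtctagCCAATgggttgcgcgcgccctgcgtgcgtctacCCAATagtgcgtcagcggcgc
Top2a, chr11:99024190-99024439, minus strand: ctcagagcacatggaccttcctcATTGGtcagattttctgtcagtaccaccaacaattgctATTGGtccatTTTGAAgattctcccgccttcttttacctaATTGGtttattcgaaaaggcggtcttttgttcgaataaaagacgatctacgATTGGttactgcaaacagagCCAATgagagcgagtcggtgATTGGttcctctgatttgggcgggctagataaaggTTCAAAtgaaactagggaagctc

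The Ccnb2 stretch held 3 CCAAT boxes and 1 CHR, and the Top2a stretch 6 and 2. Of the 35 mitosis genes with a promoter window in the reference, 27 (77.1%) held a CCAAT box within the 250 bases before the start site, against 41.5% of the 9192 genes used that had a window and 37.5% of all 27025 genes with one. The CHR letters were in 11 of the 35 windows (31.4%), against 12.4% of the genes used and 18.3% of all. Such matches describe the letters only, and binding was not measured.

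Ccnb2, a B-type cyclin that drives entry into mitosis, stood at 5.33 CPM in the control, 13.6 with LFD-iWAT-Exos and 3.33 with LFD-BAT-Exos. Its values were 9.70 with HFD-iWAT-Exos, 4.71 with HFD-BAT-Exos, 4.61 with HFD-vWAT-Exos and 1.61 with LFD-vWAT-Exos. It was 4.07-fold lower with LFD-BAT-Exos than with LFD-iWAT-Exos (3.16 to 5.30). The lean inguinal library was the highest of all, the obese inguinal library came next, and the lean brown library was below the control.

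Top2a, which untangles chromosomes before they separate, stood at 122 CPM in the control, 316 with LFD-iWAT-Exos, 87.7 with LFD-BAT-Exos, 179 with HFD-iWAT-Exos, 126 with HFD-BAT-Exos, 105 with HFD-vWAT-Exos and 59.1 with LFD-vWAT-Exos. Its ratio was 3.60-fold lower with LFD-BAT-Exos (3.43 to 3.78). Prc1, which bundles the microtubules of the central spindle, was 3.74-fold lower (3.30 to 4.24), at 13.9 against 51.7 CPM, with 18.9 CPM in the control. Espl1, the separase that cuts cohesin at anaphase, was 3.50-fold lower (3.00 to 4.09), at 9.28 against 32.5 CPM, with 15.7 CPM in the control. For each of them the lean inguinal library was on top and the lean brown library was below the control.

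Kinases and motors of mitosis followed. Aurkb (Aurora B kinase) stood at 7.33 CPM with LFD-BAT-Exos and 24.2 with LFD-iWAT-Exos, Mki67 (the Ki-67 protein) at 41.0 and 132 CPM, and Plk1 (Polo-like kinase) at 7.77 and 21.3 CPM. Kif11, a motor that pushes spindle poles apart, stood at 10.5 and 32.1 CPM and the kinetochore component Ndc80 at 6.62 and 20.1 CPM. Foxm1, a transcription factor of late cell cycle genes, was at 13.6 and 31 CPM, and Cdk1, the kinase of mitotic entry, at 26.9 and 58.3 CPM. Each of these 7 was apart. Among the 15 lowest ratios of all genes with at least 100 counts were also Kif14, a motor of cytokinesis (4.19-fold lower, 3.25 to 5.46), the kinetochore genes Spc24 (4.33-fold, 3.04 to 6.32) and Kntc1 (3.94-fold, 3.45 to 4.51), and Ccnb2.

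Over the 6 libraries without LFD-vWAT-Exos, LFD-iWAT-Exos had the highest value of all 42 mitosis genes, and LFD-BAT-Exos the lowest of 31. Their summed level was 727 CPM with LFD-BAT-Exos, 833 with HFD-vWAT-Exos, 882 in the control, 957 with HFD-BAT-Exos, 1294 with HFD-iWAT-Exos and 2072 with LFD-iWAT-Exos. Relative to the control, the median log2 ratio of the list was 1.29 with LFD-iWAT-Exos and -0.23 with LFD-BAT-Exos, 2 comparisons that share the control library. The larger part of the gap thus lay on the inguinal side.

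DNA replication genes were lower as well, by less. All 38 were lower with LFD-BAT-Exos, with a median log2 ratio of -0.75, a 1.68-fold difference. Of them 11 were apart, where 2.94% of all genes were apart and lower. Mcm5, a subunit of the replicative helicase, stood at 23.1 CPM in the control, 47.9 with LFD-iWAT-Exos, 16.5 with LFD-BAT-Exos, 25.3 with HFD-iWAT-Exos, 21.2 with HFD-BAT-Exos, 18.5 with HFD-vWAT-Exos and 15.2 with LFD-vWAT-Exos. It was 2.90-fold lower with LFD-BAT-Exos (2.58 to 3.27), and the lean inguinal library was the highest of the 7. Tk1 (thymidine kinase) was 2.64-fold lower (2.27 to 3.07), Cdc45, a helicase cofactor, 2.50-fold (2.15 to 2.92), and Pole, the leading-strand polymerase, 2.41-fold (2.12 to 2.75). Rrm2, the regulated subunit of ribonucleotide reductase, was 2.34-fold lower (2.11 to 2.60). Within the helicase the subunits were unequal, since Mcm2 was 1.27-fold lower (1.18 to 1.38) and Mcm4 1.5-fold (1.4 to 1.6).

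The Mcm5 promoter is shown since Mcm5 had the largest ratio of the list, with its E2F site (TTTGGCGC) and CCAAT boxes in capitals, either strand.
Mcm5, chr8:75109349-75109508, plus strand: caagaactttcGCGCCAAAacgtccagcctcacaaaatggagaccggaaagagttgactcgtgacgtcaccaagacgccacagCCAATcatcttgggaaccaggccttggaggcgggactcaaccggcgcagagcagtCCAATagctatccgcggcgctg
That E2F form was in 3 of 31 replication windows (9.68%) and in 0.979% of the windows of genes used. The other form searched, TTTCCCGC, was in 3 (9.68%) and 2.09%.

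Genes that gate entry into the cycle were near level. Of 16 G1 cyclins and inhibitors of cyclin-dependent kinases, 9 were higher and 7 lower, and the median log2 ratio was 0.01. None was apart, against 5.16% of all genes. Ccnd3 (cyclin D3) was 1.43-fold higher with LFD-BAT-Exos (1.33 to 1.53). Cdkn2d, an inhibitor of CDK4 and CDK6, was 1.80-fold lower (1.61 to 2.01).

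**Figure D2:**
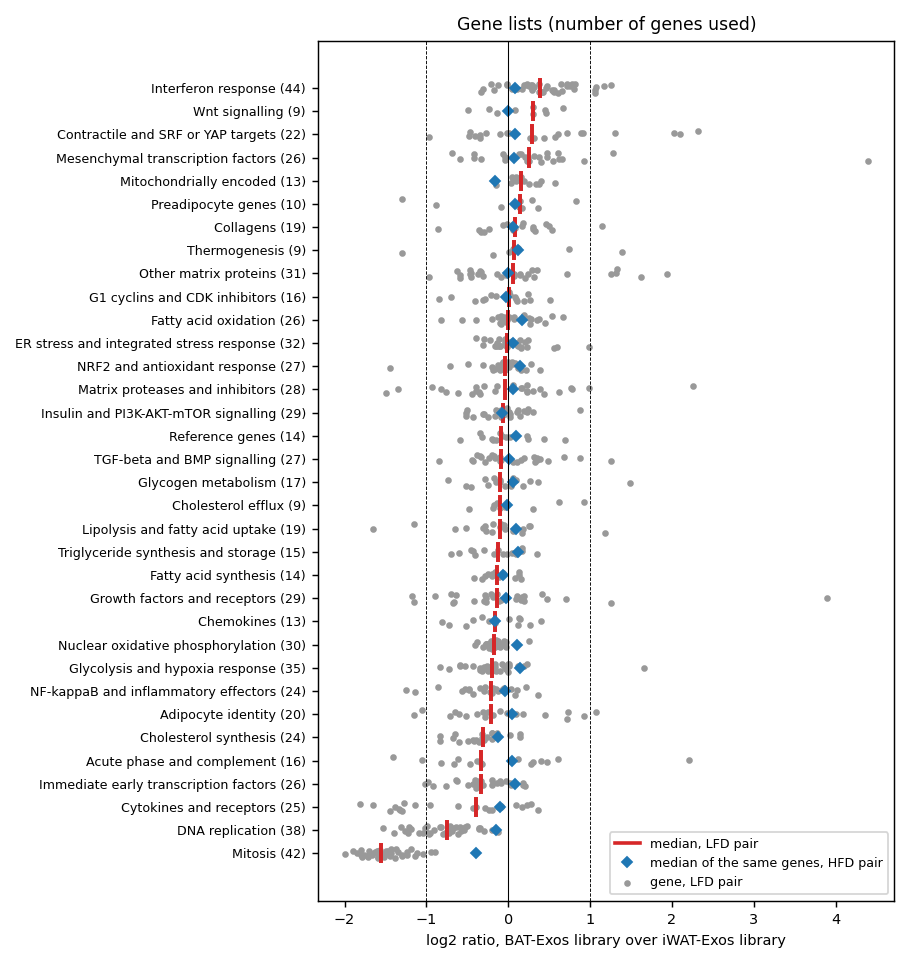
Log2 ratio of the brown over the inguinal library for each gene of each list other than those of cell type markers and PCR readouts (grey points), with the median of the LFD pair (red bar) and of the same genes in the HFD pair (blue diamond). Mitosis, at -1.55, and DNA replication, at -0.75, have the lowest medians of the lists shown, and the interferon response, at 0.39, the highest.

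Cytokines and their receptors were the next group that was lower with LFD-BAT-Exos. Of 25 listed genes 20 were lower, where 6236 of all 12484 genes were, and the median log2 ratio was -0.40. In the list 9 were apart, all of these lower, against 2.94% of all genes. Tnfrsf25, Tnfrsf4 and Thpo, which are not in the list, were apart and higher, with log2 ratios of 1.77, 1.33 and 1.28. Il18rap and Tnfrsf9 were apart and lower, at -1.08 and -1.30. Of 6 macrophage markers that reached the minimum, 4 were lower and 1 apart, with a median of -0.45. Their part in the result for the cytokine list was not tested. Il1rl1, the receptor of interleukin-33 (ST2), stood at 233 CPM in the control, 763 with LFD-iWAT-Exos, 217 with LFD-BAT-Exos, 417 with HFD-iWAT-Exos, 297 with HFD-BAT-Exos, 251 with HFD-vWAT-Exos and 920 with LFD-vWAT-Exos. It was 3.51-fold lower with LFD-BAT-Exos (3.40 to 3.62). Its ligand Il33 was 2.47-fold lower (2.22 to 2.74), at 21.7 CPM with LFD-BAT-Exos and in the control and 53.4 CPM with LFD-iWAT-Exos. The lean brown library thus lay near the control for both members of this pair.

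The receptor chains for interleukin-4 and interleukin-13 went the same way. Il4ra, which is part of both receptors, was 2.21-fold lower (2.10 to 2.33), Il13ra1 2.51-fold (2.33 to 2.70), and the decoy receptor Il13ra2 2.64-fold (2.05 to 3.43). Of the interleukin-6 family, Il6 stood at 5.59 against 13.7 CPM (2.45-fold lower, 1.99 to 3.03) and Lif at 10.3 against 32.4 CPM (3.15-fold, 2.72 to 3.66). Their receptor chains were closer to equal. Il6st (gp130) was 1.22-fold lower (1.20 to 1.24) and Lifr 1.06-fold (0.997 to 1.13). Spp1, which encodes osteopontin, stood at 1469 CPM in the control, 3660 with LFD-iWAT-Exos and 1345 with LFD-BAT-Exos, a 2.72-fold difference (2.69 to 2.76). Il1rn, the natural antagonist of the interleukin-1 receptor, was 2.56-fold lower (1.93 to 3.42).

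Among 24 NF-kappaB targets and inflammatory effectors 19 were lower, with a median log2 ratio of -0.21. Of the list 2 were apart, both lower, against 2.94% of all genes. Ptgs2, the inducible cyclooxygenase, stood at 89.4 against 212 CPM (2.37-fold lower, 2.25 to 2.5), with 60.7 CPM in the control. Nos2, the inducible nitric oxide synthase, stood at 238 against 523 CPM (2.2-fold, 2.13 to 2.27), with 179 CPM in the control. For both genes the lean brown library lay between the control and the lean inguinal library. None of the 13 listed chemokines that reached the minimum was apart, against 5.16% of all genes. Outside that list, the chemokine genes Ccl6 and Cxcl15 were apart and higher, with log2 ratios of 2.33 and 1.56. Cxcl1, which draws neutrophils, was 1.76-fold lower (1.71 to 1.81), and Ccl2, which draws monocytes, 1.43-fold (1.38 to 1.49). A kappaB site was in 8 of 18 windows of the NF-kappaB list (44.4%), against 6.96% of the genes used, and in neither direction did the genes apart hold it more often than that (6.79% of those higher, 6.15% of those lower). Of 16 acute phase and complement genes 7 were higher and 9 lower, with a median log2 ratio of -0.33. In this list 1 was apart and higher (2.22% of all genes were) and 2 were apart and lower (2.94% were). The higher one was the complement gene C2, with a log2 ratio of 2.21, the largest of the list. Ptx3, a long pentraxin, was 2.65-fold lower (2.60 to 2.69), at 698 against 1846 CPM. Lcn2, a protein that withholds iron from bacteria, was 2.08-fold lower (2.04 to 2.11), at 872 against 1812 CPM. No count of Tnf, Il1b, Il4 or Il10 was found in either library, which allows up to 0.133 CPM with LFD-BAT-Exos and 0.123 CPM with LFD-iWAT-Exos.

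Of 26 immediate early transcription factors 21 were lower. Only Maff was apart, and lower (2.02-fold, 1.84 to 2.23), where 2.94% of all genes were. Dusp6, a phosphatase of ERK, was 1.89-fold lower (1.63 to 2.21) and Fosl1, an AP-1 subunit with shared reads, 1.97-fold (1.79 to 2.17). Hbegf, a ligand of the EGF receptor, was 2.23-fold lower (2.00 to 2.48). Of 22 cytokine and receptor genes with a promoter window, 6 held an AP-1 site (TGACTCA or TGAGTCA), which is 27.3% against 4.12% of the genes used. They were Il1a, Il1rn, Il6, Il11, Il13ra2 and Lif.

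The interferon response went in the other direction. Of 44 genes 37 were higher with LFD-BAT-Exos and 7 lower, and the median log2 ratio was 0.39, a 1.31-fold difference. In this list 5 genes were apart, all of these higher, against 2.22% of all genes. Cmpk2, a mitochondrial nucleotide kinase, stood at 18.4 CPM in the control, 8.37 with LFD-iWAT-Exos, 20.1 with LFD-BAT-Exos, 12.9 with HFD-iWAT-Exos, 13.9 with HFD-BAT-Exos, 15 with HFD-vWAT-Exos and 12.1 with LFD-vWAT-Exos. Its ratio was 2.40-fold (2.03 to 2.84). Mx1, a GTPase that blocks viruses, was 2.25-fold higher (1.99 to 2.55), at 35.3 against 15.7 CPM, and Ifi47, an immunity-related GTPase, 2.11-fold (1.82 to 2.46), at 22.9 against 10.8 CPM. Ifit3 (2.08-fold, 1.96 to 2.2) and the similar gene Ifit3b (2.09-fold, 1.93 to 2.27) were higher too, both with shared reads.

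Most of the group had smaller ratios. Isg15, a ubiquitin-like modifier, was 1.69-fold higher (1.54 to 1.85), and Ifit1, which binds viral RNA, 1.75-fold (1.65 to 1.87). Of the factors that carry the signal, those named here had small ratios, with Stat2 1.22-fold higher (1.19 to 1.26) and Irf9 1.23-fold higher (1.15 to 1.31). Over the 6 libraries without LFD-vWAT-Exos the lean inguinal library was the lowest for 29 of the 44 and the lean brown library the highest for 21. Relative to the control the median log2 ratio was 0.05 with LFD-BAT-Exos and -0.36 with LFD-iWAT-Exos. Here too the lean brown library sat near the control.

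The promoter of Ifit3 is shown as the member apart with the most evident interferon-stimulated response element (GAAANNGAAA, either strand, in capitals).
Ifit3, chr19:34583369-34583528, plus strand: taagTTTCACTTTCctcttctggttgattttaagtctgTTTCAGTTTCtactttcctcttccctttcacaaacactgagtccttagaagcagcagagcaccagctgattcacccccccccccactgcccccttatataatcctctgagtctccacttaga
It held 2 matches. The element was in 16 of 33 interferon windows (48.5%) and in 3.20% of the windows of genes used.

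Contractile genes of smooth muscle and myofibroblasts had some of the largest ratios of all. Of 22 genes in this list, which joins them with targets of SRF and YAP, 13 were higher with LFD-BAT-Exos, where 6248 of all 12484 genes were. In it 4 were apart, all higher, against 2.22% of all genes, and the median log2 ratio was 0.29. Acta2, smooth muscle actin, stood at 359 CPM in the control, 69.3 with LFD-iWAT-Exos, 297 with LFD-BAT-Exos, 116 with HFD-iWAT-Exos, 170 with HFD-BAT-Exos, 240 with HFD-vWAT-Exos and 29.5 with LFD-vWAT-Exos. It was 4.28-fold higher with LFD-BAT-Exos (4.06 to 4.52). The 2 inguinal libraries were the lowest of the 6 without LFD-vWAT-Exos.

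Myl9, the regulatory light chain of myosin, stood at 22.8 CPM in the control, 4.70 with LFD-iWAT-Exos, 23.8 with LFD-BAT-Exos, 10.6 with HFD-iWAT-Exos, 13.1 with HFD-BAT-Exos, 21.7 with HFD-vWAT-Exos and 3.07 with LFD-vWAT-Exos. Its ratio was 5.06-fold (4.13 to 6.24). Tagln (transgelin, shared reads) was 4.14-fold higher (3.30 to 5.25) and Lmod1, an actin nucleator of smooth muscle, 2.55-fold (1.72 to 3.83). Smaller ratios, still higher, were those of Tpm1 (tropomyosin, 1.88-fold, 1.81 to 1.94), Mylk (myosin light chain kinase, 1.86-fold, 1.78 to 1.94) and Flna (filamin A, 1.65-fold, 1.61 to 1.69). Of other members, Cyr61 was 1.20-fold lower (1.17 to 1.23) and Ankrd1 1.98-fold lower (1.51 to 2.61).

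Myl9 is shown as the gene apart of this list that held a CArG box, the site of serum response factor, in capitals.
Myl9, chr2:156775294-156775463, plus strand: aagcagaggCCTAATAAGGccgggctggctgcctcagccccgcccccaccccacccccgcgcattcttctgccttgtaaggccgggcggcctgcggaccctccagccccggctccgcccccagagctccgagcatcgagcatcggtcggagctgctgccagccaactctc
CArG boxes were in 4 of 18 windows of the list (22.2%) and in 1.39% of those of genes used. The other 3 were in Cnn2, Vcl and Srf, none of them apart.

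The extracellular matrix was split. Of 31 matrix proteins other than collagens 16 were higher and 15 lower, and 5 were apart, all higher, against 2.22% of all genes, while the median log2 ratio was 0.06. Fmod (fibromodulin), a small leucine-rich proteoglycan that binds collagen, was 3.85-fold higher (3.63 to 4.08). Its relatives Ogn (osteoglycin, 3.08-fold, 3.02 to 3.15) and Aspn (asporin, 2.48-fold, 2.44 to 2.53) were also higher. Fmod stood at 260 CPM in the control, 59.7 with LFD-iWAT-Exos, 230 with LFD-BAT-Exos, 115 with HFD-iWAT-Exos, 188 with HFD-BAT-Exos, 239 with HFD-vWAT-Exos and 56.7 with LFD-vWAT-Exos. Both lean brown and control values were thus about level, and both inguinal ones lower. Of the same family, Dcn (decorin) was 1.27-fold lower (1.26 to 1.29) and Lum (lumican) 1.39-fold (1.29 to 1.49).

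Postn (periostin) was 2.50-fold higher (2.48 to 2.53), at 5262 against 2101 CPM, with 5586 CPM in the control. Among the 19 listed collagens that reached the minimum Col11a1 alone was apart, 2.22-fold higher (2.16 to 2.28). Over all genes 2.22% were apart and higher. Outside the list, Col9a1, Col27a1, Col23a1 and Col20a1 were apart and higher, with log2 ratios of 2.58, 1.59, 1.27 and 1.08. Col28a1 was apart and lower, at -1.06. Col1a1 was 1.41-fold higher (1.40 to 1.42). The proteases and their inhibitors were mixed. Timp4 was 5.03-fold higher (3.41 to 7.62) at 6.57 against 1.31 CPM, whereas Timp1 was 2.82-fold lower (2.68 to 2.97) at 86.8 against 245 CPM. Mmp3 (stromelysin) was 2.54-fold lower (2.45 to 2.63), and Mmp2 (gelatinase A) was 1.98-fold higher (1.96 to 2.00), just short of the call.

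**Figure D3:**
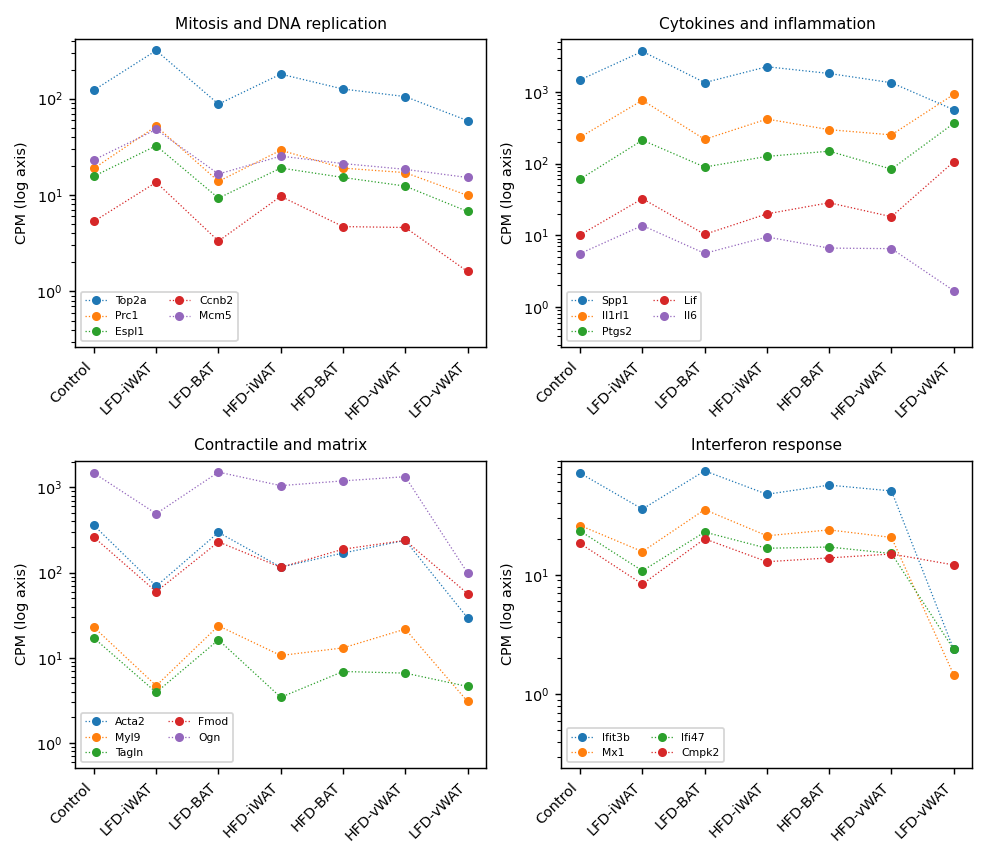
CPM of single genes in each of the 7 libraries, on log axes, with dotted lines joining the values of 1 gene. Leaving out LFD-vWAT-Exos, at the right edge, the division and cytokine genes shown are highest with LFD-iWAT-Exos (Top2a at 316 CPM, against 87.7 CPM with LFD-BAT-Exos), while contractile, matrix and interferon genes are lower there than with LFD-BAT-Exos (Acta2 at 69.3 against 297 CPM).

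Of 28 genes that the study read by PCR and that reached the minimum here, 10 were higher and 18 lower. Those apart were Ppargc1a, which was higher (2.22% of all genes were), and Il6, Il1rn and Tnfrsf9, which were lower (2.94% of all genes were). Of 20 adipocyte identity genes 7 were higher and 13 lower, with a median log2 ratio of -0.22, and 3 were apart, against 5.16% of all genes. Fabp4, the fatty acid binding protein of adipocytes, stood at 78.6 CPM in the control, 175 with LFD-iWAT-Exos, 78.7 with LFD-BAT-Exos, 133 with HFD-iWAT-Exos, 145 with HFD-BAT-Exos, 93.3 with HFD-vWAT-Exos and 73.9 with LFD-vWAT-Exos. It was 2.23-fold lower with LFD-BAT-Exos (2.11 to 2.35). Rarres2 (chemerin, shared reads) was 2.10-fold lower (1.70 to 2.60), and Aoc3, an amine oxidase of the adipocyte surface, 2.10-fold higher (1.82 to 2.43). Pparg (1.01-fold lower, 0.865 to 1.19), Lpl (1.13-fold higher, 1.11 to 1.15) and Cd36 (1.07-fold lower, 0.696 to 1.66) were close to equal.

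Of 9 thermogenesis genes that reached the minimum, 7 were higher and 2 lower. In each direction 1 was apart, where 2.22% of all genes were apart and higher and 2.94% apart and lower. Ppargc1a, the coactivator of mitochondrial biogenesis, stood at 8.18 CPM in the control, 3.47 with LFD-iWAT-Exos, 9.19 with LFD-BAT-Exos, 5.49 with HFD-iWAT-Exos, 6.72 with HFD-BAT-Exos, 8.10 with HFD-vWAT-Exos and 2.15 with LFD-vWAT-Exos. It was 2.65-fold higher with LFD-BAT-Exos (2.05 to 3.45), and again it was the lean inguinal value that lay away from the control. Tnfrsf9 (CD137), a marker used for beige adipocytes, was 2.49-fold lower (2.00 to 3.12). No count was found in either library for Ucp1, which makes brown fat mitochondria leak protons, or for Cox7a1, another brown fat marker, which allows up to 0.133 and 0.123 CPM. Ucp2 was 1.05-fold higher (0.956 to 1.14).

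No gene was apart among 14 of fatty acid synthesis, 15 of triglyceride synthesis and storage, 26 of fatty acid oxidation, 24 of cholesterol synthesis, 9 of cholesterol efflux, 29 of insulin and mTOR signalling or 32 of the endoplasmic reticulum stress response. Over all genes used 5.16% were apart, so a count of 0 in lists this small says little. Fasn (1.1-fold higher, 1.04 to 1.16), Acaca (1.09-fold higher, 1.00 to 1.19, shared reads) and Cpt1a (1.01-fold lower, 0.959 to 1.07) were near equal. In cholesterol synthesis 21 of 24 genes were lower, with a median log2 ratio of -0.31. In glycolysis and the hypoxia response 29 of 35 were lower, with a median of -0.20. The 1 gene apart there, Ndrg1, a gene induced by low oxygen, was higher (3.29-fold, 2.23 to 4.97).

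Energy genes of the nucleus and of the mitochondrion went different ways. Of 30 nuclear genes of oxidative phosphorylation 29 were lower with LFD-BAT-Exos, with a median log2 ratio of -0.18, and none was apart, against 5.16% of all genes. Of 13 genes encoded in mitochondrial DNA 12 were higher, none apart, with a median of 0.16, though 8 of the 13 had shared reads. The mitochondrial share of all counts was 2.60% with LFD-BAT-Exos and 2.40% with LFD-iWAT-Exos. Of 19 genes of lipolysis and fatty acid uptake 6 were higher and 13 lower, and 3 were apart, against 5.16% of all genes. They were Fabp4, given above, Lipg, an endothelial lipase (3.39-fold lower, 1.93 to 6.32, at 0.710 against 2.41 CPM), and Ces1d, a carboxylesterase of fat and liver (2.27-fold higher, 1.97 to 2.61).

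Signalling and patterning genes added single members. Fgf2 (basic fibroblast growth factor) had 81 counts with LFD-BAT-Exos and 4 with LFD-iWAT-Exos, a 22.0-fold difference (8.27 to 82.7), and stood between 1.49 and 2.76 CPM in the other 5 libraries. Its receptor gene Fgfr2 was 2.39-fold higher (2.14 to 2.67). Igfbp4, which binds insulin-like growth factors, was 2.25-fold lower (2.13 to 2.39), at 72.7 against 164 CPM. Osr2, a mesenchymal transcription factor, was 2.46-fold higher (1.96 to 3.11) and Id4, an inhibitor of helix-loop-helix factors, 2.45-fold higher (1.66 to 3.67). Among 27 TGF-beta and BMP genes 1 was apart, among 9 Wnt genes 0, and among 17 of glycogen metabolism 1, against 5.16% of all genes. In the antioxidant list of 27, the metallothionein Mt2 (shared reads) was 2.72-fold lower (2.48 to 2.99). Markers of other cell types apart were the macrophage receptor Mrc1 (13 against 60 counts), the mesothelial Msln (14.7 against 31.7 CPM) and S100b of Schwann cells, which 3T3-L1 and other adipocytes can also express (35 against 7 counts). Macrophage markers summed to 57.6 and 62.6 CPM as given above, with 2 of 15 at 0 in both libraries, and mesothelial markers to 15.2 and 32.6 CPM, with 1 of 5 at 0 in both. Their part in the other results was not tested.

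The 15 highest and 15 lowest ratios among the 10892 genes with at least 100 counts were mostly of another kind, and 5 of the 30 were in a gene list. Reads of 3 of the highest and 6 of the lowest were shared with other genes. Those named below were high in some libraries and low in others, and the set of low libraries varied between genes. Dnm3os, a noncoding RNA transcribed opposite to Dnm3, stood at 110 CPM in the control, 6.66 with LFD-iWAT-Exos, 142 with LFD-BAT-Exos, 14 with HFD-iWAT-Exos, 11.2 with HFD-BAT-Exos, 145 with HFD-vWAT-Exos and 26.3 with LFD-vWAT-Exos. Its ratio was 21.3-fold (18.2 to 25.1), with 3192 against 163 counts. The lean inguinal library shared its low value with both HFD libraries of those depots.

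Dnm3os is shown with its miRNAs because it is the precursor of 2 hairpins, and the mature sequences (RefSeq, GRCm38.p6, seed in capitals) lie within it on the same strand. They were not measured in these libraries.
mmu-miR-199a-5p, chr1:162217844-162217866: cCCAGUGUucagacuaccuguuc
mmu-miR-199a-3p, chr1:162217883-162217904: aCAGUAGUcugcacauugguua
mmu-miR-214-5p, chr1:162223397-162223418: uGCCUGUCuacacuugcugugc
mmu-miR-214-3p, chr1:162223438-162223459: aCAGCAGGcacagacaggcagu
No 2 of the 4 share a seed.

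Protocadherins, cell surface proteins made from a cluster of alternative genes, gave 3 of the 15 highest ratios. Of all 39 protocadherin genes used, 17 had shared reads, among them 3 of those apart. In the family 6 were apart and higher (2.22% of all genes were) and 1 apart and lower (2.94% were), a tally made after the values were seen. The lower one was Pcdhga4 (shared reads), with 3 counts with LFD-BAT-Exos and 69 with LFD-iWAT-Exos. Pcdhb19 had no count with LFD-iWAT-Exos or in the control and 132 counts with LFD-BAT-Exos, so it was at least 47.8-fold higher against a floor of 3 counts. It stood between 3.70 and 4.84 CPM in the other 4 libraries. Pcdhb22 was at 0.980 CPM with LFD-iWAT-Exos and 27.0 with LFD-BAT-Exos (27.5-fold, 18.3 to 43.3), and between 14.7 and 30.2 CPM in the other 5. For Pcdhb22 the lean inguinal library was thus the single low one. Pcdhga2 (shared reads) was at 34.5 CPM with LFD-iWAT-Exos and 388 with LFD-BAT-Exos. It was at 207 CPM with HFD-BAT-Exos but at most 3.91 CPM in the other 4.

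The libraries that were high or low differed from gene to gene. A4galt, which makes the glycolipid Gb3, was at 1.92 CPM with LFD-iWAT-Exos, 16.9 with LFD-BAT-Exos and 15.4 in the control (8.81-fold, 6.5 to 12.2). Ntn1, the guidance cue netrin-1, was at 11.1 CPM with LFD-iWAT-Exos and 65.8 with LFD-BAT-Exos (5.92-fold, 5.20 to 6.77), with 15.2 in the control. Among the lowest ratios, Tmem127, a regulator of mTOR, was at 82.1 CPM in the control and 76.6 with LFD-iWAT-Exos, but at 12.4 with LFD-BAT-Exos and 10.1 to 13.6 in the 3 HFD libraries (6.18-fold, 5.45 to 7.04). Rab22a, a GTPase of endosomes, was at 104 with LFD-iWAT-Exos and 18.5 with LFD-BAT-Exos (5.61-fold, 5.05 to 6.23), and at 21.6 CPM with HFD-iWAT-Exos but 106 to 115 CPM in the other 4. Noct, a circadian phosphatase with shared reads, was at 66.6 CPM with LFD-iWAT-Exos and 10.6 with LFD-BAT-Exos (6.27-fold lower, 5.47 to 7.22), with 25 in the control. The lean brown value of Noct was the lowest of all 7.

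**Figure D4:**
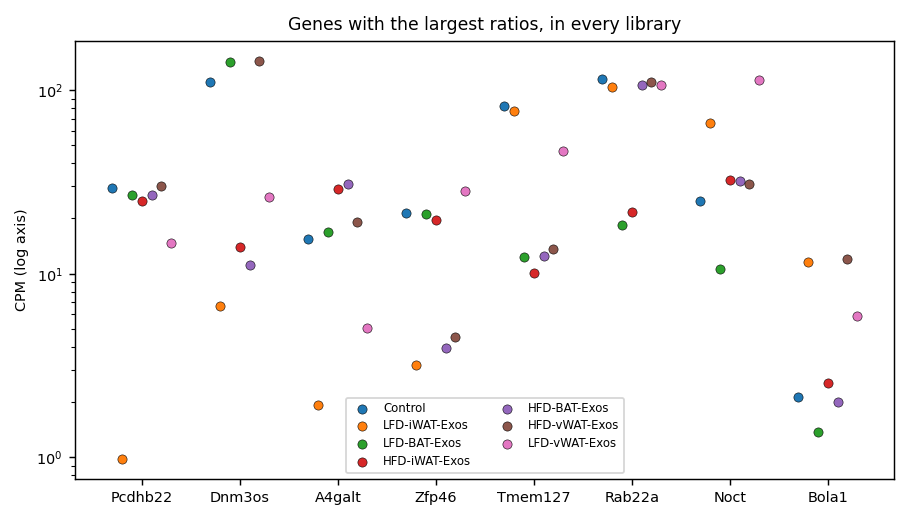
CPM of 8 genes among the largest ratios in each of the 7 libraries, on a log axis. Rab22a is low in the LFD-BAT-Exos (18.5 CPM) and HFD-iWAT-Exos (21.6 CPM) libraries only, and Pcdhb22 is low with LFD-iWAT-Exos (0.980 CPM).

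The same comparison of depots was available on the high-fat diet, in 2 libraries that the lean pair does not contain. There 243 of 12433 genes (1.95%) were apart between HFD-BAT-Exos and HFD-iWAT-Exos. Of 642 genes apart in the lean pair that had a value in the obese pair, 438 (68.2%) had the same sign in both, against 54.3% of all genes used. For genes lower with LFD-BAT-Exos the share was 74.1%, and for those higher it was 60.4%. Of the 644 genes, 34 were apart in the same direction in both pairs and 21 in opposite directions, where 1.95% of all genes were apart in the obese pair. These shares are given with no p, since genes of 1 library are not independent.

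Division genes kept their direction with a smaller gap. Of the 42 mitosis genes 41 were lower with HFD-BAT-Exos than with HFD-iWAT-Exos, 1 of them apart, and the median log2 ratio was -0.40 against -1.55 in the lean pair. Ccnb2 was the 1 apart, 2.06-fold lower (1.61 to 2.65). Top2a was 1.43-fold lower (1.36 to 1.5). DNA replication had 29 of 38 genes lower, with a median of -0.15. Contractile genes were closer, with Acta2 1.46-fold higher with HFD-BAT-Exos (1.39 to 1.54) and Myl9 1.23-fold (1.02 to 1.48). The interferon list had a median of 0.08 and the cytokine list -0.10, each the same sign as in the lean pair. The medians of other lists had the opposite sign, with 0.08 for immediate early factors against -0.33 in the lean pair, 0.04 for acute phase and complement against -0.33, and 0.05 for adipocyte identity against -0.22. Apart in both and in the same direction were also Timp4 and Adh1, an alcohol and retinol dehydrogenase (152 against 57 counts in the lean pair). Xiap, an inhibitor of caspases, and Rab22a were among the 21 that turned, with log2 ratios of 2.09 and -2.48 in the lean pair and -2.15 and 2.30 in the obese pair.

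**Figure D5:**
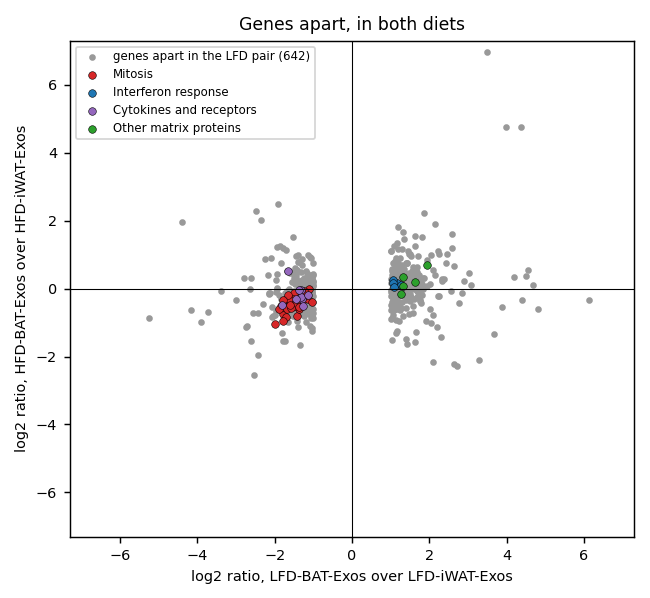
Log2 ratio of the brown over the inguinal library on the high-fat diet against that on the low-fat diet, for the 642 genes apart in the lean pair with a value in both. The mitosis genes lie to the lower left, and their median log2 ratio was -1.55 on the low-fat and -0.40 on the high-fat diet over the whole list.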

How the data were processed

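RNA-seq was available for 7 libraries (3T3-L1 cells), with a single library in each group as the sample labels give it. The authors trimmed reads with fastp, aligned them with HISAT2, assembled transcripts with StringTie and used edgeR. No versions were given, and a human reference is named while gene IDs are those of mouse, so the build is not given in the sources used here and no gene coordinate was taken from the files. Deposited values were whole-number counts per gene, not normalized, and FPKM, which the authors scaled to gene length and library total. The counting is not stated to use strand, so reads of overlapping antisense genes cannot be told apart.

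Counts were scaled by TMM factors (edgeR 4.0.16, R 4.3.3), which lay between 0.999 and 1.01 except for LFD-vWAT-Exos at 0.965. With 1 library a group no test was possible. Each ratio has an exact Clopper-Pearson 95% interval. It treats each read as independent, although PCR copies were not marked by molecular identifiers, and leaves culture differences out. Floors cover counting error only and use 3 counts per library. Log2 ratios carry a prior count of 2. Shared reads means that 20% or more of the exon bases overlap a second gene, or that 20% or more of the 31-mers recur in transcripts of a second gene (GENCODE M21). They were 1881 of the 12484 genes used, 23.1% of those higher, 16.9% of those lower and 14.8% of the rest. Of the gene IDs, 34267 were found in the reference table, and 59 symbols occur more than once. The method was tested on simulated data drawn with counting error only, so that test does not cover differences between cultures.

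Of 43 gene lists, 1037 of 1037 symbols were found. Named genes were the study's PCR readouts, the 4 largest log2 ratios of each list given 50 counts or more in one library, and the 15 highest and 15 lowest among genes with at least 100 counts. Other list members, genes named from outside a list and genes of the closing section were named after their values were seen. The comparison, the lists and these rules were chosen with earlier results of these data known. Promoter windows span 250 bases before to 50 after the start site (RefSeq, GRCm38.p6), and motifs were sought in the part before it. Alternatives were total-count and DESeq2 (1.42.0) scaling, no minimum, a minimum of 10 CPM, folds of 1.5 and 4, a prior of 0.5, a 99% interval and log2 of FPKM plus 1.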

Additional observations from a re-analysis of the deposited data

Results flagged for a closer look

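In 3 gene lists, at least 75% of the members went one way between LFD-BAT-Exos and LFD-iWAT-Exos and at least 75% went the other way between HFD-BAT-Exos and HFD-iWAT-Exos. The difference between the diets was not tested, since each group was 1 library. For glycolysis and the hypoxia response, the lean median log2 ratio of -0.20 (29 of 35 genes lower) stood beside 0.14 in the obese pair (30 of 35 higher), a difference of -0.34. For nuclear genes of oxidative phosphorylation, -0.18 (29 of 30 lower) stood beside 0.11 (24 of 30 higher), a difference of -0.29. For genes encoded in mitochondrial DNA, 0.16 (12 of 13 higher) stood beside -0.16 (12 of 13 lower), a difference of 0.32. None of these genes was apart in either pair except Ndrg1 in the lean pair. Over all genes 5.16% were apart in the lean pair and 1.95% in the obese pair.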

How the results depend on the processing

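Scaling by total counts or by DESeq2 size factors left 644 genes apart, and neither moved the median of all genes by over 0.01. A prior of 0.5 gave 666 and a 99% interval 611. With no minimum, 1059 genes were apart (514 higher). With a minimum of 10 CPM, 288 were apart, 72 higher and 216 lower, so that 25% of the genes apart were higher against 43.0% above. A fold of 1.5 gave 1564 (745 higher, 819 lower) and a fold of 4 gave 75 (46 and 29), of which 61.3% were higher. Log2 of FPKM plus 1 gave 178 (51 and 127), of which 28.7% were higher. With at least 10 CPM, 76.7% of the genes apart had the same sign in the obese pair.

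On the FPKM scale the list medians became -1.18 for mitosis, -0.545 for DNA replication, -0.284 for cytokines and receptors, -0.205 for acute phase and complement, 0.129 for Wnt signalling, -0.112 for adipocyte identity and -0.188 for macrophage markers. With at least 10 CPM they became -0.508 for cytokines and receptors, -0.462 for acute phase and complement, 0.441 for contractile genes, -0.059 for other matrix proteins and 0.065 for macrophage markers, the last a change of sign against -0.45. At 4-fold, 0 mitosis genes were apart, against 40. At 1.5-fold, 28 DNA replication genes were apart, against 11, and on the FPKM scale 4. The cause of these shifts was not tested. No replicate could be left out, since each group had 1 library. No paired analysis was possible because every group held a single library.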

Other observations

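Genes of DNA repair that copy or join strands at stalled forks were lower with LFD-BAT-Exos too. They belong to no list and were picked after their values were seen, so their number is no evidence. Fancd2 and Fanci, which form a clamp at crosslinks, stood at 7.28 against 23.0 CPM (3.16-fold lower, 2.65 to 3.79) and 4.35 against 13.8 CPM (3.16-fold, 2.52 to 4.0). The recombination gene Rad54l was 3.65-fold lower (2.81 to 4.80), and Brca1 2.70-fold (2.38 to 3.07). Control values were 8.14 CPM for Fancd2 and 15.9 for Brca1, both below the lean inguinal library and above the lean brown library.

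Of secreted and surface proteins outside the lists, Clec3b (tetranectin) was 5.49-fold higher (4.52 to 6.72), at 27.6 against 5.02 CPM and 30.02 CPM in the control. Omd (osteomodulin), a further small leucine-rich proteoglycan, was 3.51-fold higher (2.44 to 5.17), and Apod (apolipoprotein D) 2.40-fold (2.32 to 2.47), at 574 against 239 CPM. Ptn (pleiotrophin) was 2.03-fold higher (2.01 to 2.06). Socs3, the feedback inhibitor of interleukin-6 type receptors, was 2.46-fold lower (2.35 to 2.58), at 106 against 262 CPM with 76.0 CPM in the control, and the kinase Pim1 2.16-fold lower (1.94 to 2.41). Both genes are known targets of STAT3.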
